A study of Mus musculus with 18 samples.

Results

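Integrins are heterodimers of an alpha and a beta chain that anchor T cells to matrix and to other cells. The set described here holds 9 integrin chains of T cells and one of their ligands, 10 of the 26665 genes listed for each library, chosen by gene symbol (Itgb1, Itgb2, Itgb3, Itgb7, Itgae, Itgal, Itga4, Itga6, Itgav and Icam1). All 10 passed the filter on low values, which asked for 3 of the 18 libraries to reach an FPKM of 1, and 9 of the 10 reached an FPKM of 1 in every library, the exception being Itgae. RNA was sequenced from spleen T cells of C57BL/6 mice that all carried a Foxp3EGFP reporter, either with CD28 deleted (CD28-/-Foxp3EGFP) or with CD28 intact (Foxp3EGFP, wild type). From each genotype the study sorted Nrp1+ regulatory T cells (Treg), which it names thymic, Nrp1-negative Treg, which it names peripheral, and conventional T cells (Tconv), with 3 libraries in each of the 6 groups. Neither the age nor the sex of the mice is given in the sources used here. Whether each replicate was a separate mouse is not stated, so p-values measure only the spread between these libraries, which may be technical.

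The beta chain decides much of what an integrin binds. Beta1 joins alpha4 to bind Vcam1 and fibronectin, and joins alpha6 to bind laminin. Beta7 joins alpha4 to bind Madcam1 on gut venules, and joins alphaE (CD103) to bind E-cadherin on epithelium. Beta2 joins alphaL to form LFA-1, whose ligand Icam1 is itself carried by activated lymphocytes. AlphaV is shared by several beta chains, beta3 and beta8 among them, and with beta8 it releases active TGF-beta. CD28 gives T cells their classical costimulatory signal, and LFA-1 binding to Icam1 stabilises the contact in which that signal is given. Transcripts do not show which heterodimers were at the cell surface.

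Itgb1 and Icam1 are the members that were called lower in CD28-deficient Tconv, and RefSeq (GRCm38.p6) gives a promoter window for both, from 250 bases before to 50 after the gene's start. They are shown because these were the members called for genotype. Capitals mark matches, on either strand, to GGAAATTCC (letters of a kB site), to TTCNNNGAA (letters of a STAT site), to TATAAAA (letters of the core promoter box) and to GGGCGG (letters of an Sp1 box). The letters were chosen with the known kB site of Icam1 in mind.
Icam1 promoter, chr9:21015690-21015989, plus strand: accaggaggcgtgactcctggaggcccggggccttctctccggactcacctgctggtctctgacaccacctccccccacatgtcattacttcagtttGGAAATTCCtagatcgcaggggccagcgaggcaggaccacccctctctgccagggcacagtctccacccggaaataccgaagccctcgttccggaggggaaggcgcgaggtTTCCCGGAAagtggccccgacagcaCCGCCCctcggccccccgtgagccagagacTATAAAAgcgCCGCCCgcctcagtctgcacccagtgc
Itgb1 promoter, chr8:128685404-128685703, plus strand: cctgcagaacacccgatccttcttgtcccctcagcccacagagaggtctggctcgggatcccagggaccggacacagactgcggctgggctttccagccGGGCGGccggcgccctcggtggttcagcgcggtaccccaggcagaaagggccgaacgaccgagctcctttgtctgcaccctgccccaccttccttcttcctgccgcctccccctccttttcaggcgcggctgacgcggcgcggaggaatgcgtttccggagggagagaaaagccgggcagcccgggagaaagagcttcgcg
Icam1 held GGAAATTCC 153 bases before its RefSeq start, a run of letters found in 0.317% of 32851 RefSeq promoter windows of 300 bases. GENCODE places the start of Icam1 elsewhere, at 21015985, near the end of this window. The Icam1 window also held TTCNNNGAA (8.3% of windows) and TATAAAA (5.48%), the latter 13 bases after the RefSeq start. On the minus strand it held 2 copies of GGGCGG (35.7%). The Itgb1 window held GGGCGG, 151 bases before the start, and none of the other 3. No marked match overlapped another. A match to letters is a description of the sequence and says nothing of binding.

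The libraries carried their labels in most respects. Foxp3, the factor that defines Treg, was 56.0 to 137 FPKM (fragments mapped to a gene, scaled by its length and by the size of the library) in Treg libraries and at most 0.285 FPKM in 5 of the 6 Tconv libraries. The exception was CD28-deficient Tconv replicate 3, with 21.1 FPKM of Foxp3 and a summed level of 7 Treg markers of 169.6 FPKM, against 27.8 and 28.8 FPKM in replicates 1 and 2. Nrp1, on which the Treg subsets were sorted, was 55.6 to 83.5 FPKM in Nrp1+ Treg libraries and 0.449 to 0.911 FPKM in Nrp1-negative ones. In Tconv it was 0.627, 0.841 and 12.8 FPKM in CD28-deficient and 2.99, 4.99 and 5.08 FPKM in wild-type cells. CD28-deficient Nrp1+ Treg replicate 3 held 46.1 FPKM of 4 Tconv transcripts, taken from earlier results of these data, against 4.3 and 7.32 FPKM in its group. These 4 summed to 29.7 to 43.9 FPKM in CD28-deficient and 18.6 to 38.0 FPKM in wild-type Nrp1-negative Treg. In Tconv they summed to 140.4 to 240.6 FPKM. Which cells brought them into that replicate was not tested. The fewest genes at an FPKM of 1 or more were in replicate 1 of wild-type Nrp1-negative Treg (10703), and wild-type Tconv replicate 1 the highest summed FPKM (994139, against 514726 to 688042 in the others). Mir5105, a small RNA, took 2.98% to 26.9% of summed FPKM. Libraries labelled CD28-deficient did not have less Cd28 (88.8 ± 25.8 FPKM in CD28-deficient Tconv and 61.3 ± 25.2 FPKM in wild-type Tconv). One value over the whole gene does not show a deleted part, so Cd28 checks nothing here and genotype is used as labelled. T cell markers were high in all libraries (Cd3e 306.2 to 609.7 FPKM). Read depth is unknown, so no counting interval is given. In bulk RNA, fewer cells of a type and less RNA per cell cannot be told apart.

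By median over the 18 libraries, the beta7 chain (283 FPKM), the beta2 chain (174 FPKM) and its partner alphaL (160 FPKM) were the highest members. Itgb7 lay between 200.7 and 398.6 FPKM and Itgb2 between 118.0 and 209.8 FPKM over the 18 libraries, and Itgal between 82.0 and 268.5 FPKM. Itga4 lay between 25.1 and 121.4 FPKM and Itga6 between 9.09 and 45.3 FPKM. Itgb1 lay between 5.6 and 139.9 FPKM. The lower members were Itgb3 (8.88 to 40.6 FPKM), Icam1 (4.45 to 32.7 FPKM), Itgav (1.77 to 16.0 FPKM) and Itgae (0.0538 to 15.7 FPKM). All changes below are differences of log2(FPKM + 1), which understate the change of low genes such as Itgae, with their standard error. Each was tested with limma over 12265 genes and 18 libraries, and a member was called at a Benjamini-Hochberg adjusted p under 0.05. Of the 10 members, 5 (Itgb1, Itgae, Icam1, Itgb3 and Itgav) were called in at least 1 of 9 comparisons of a pair of groups, beside 17% of all genes tested.

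**Figure D1:**
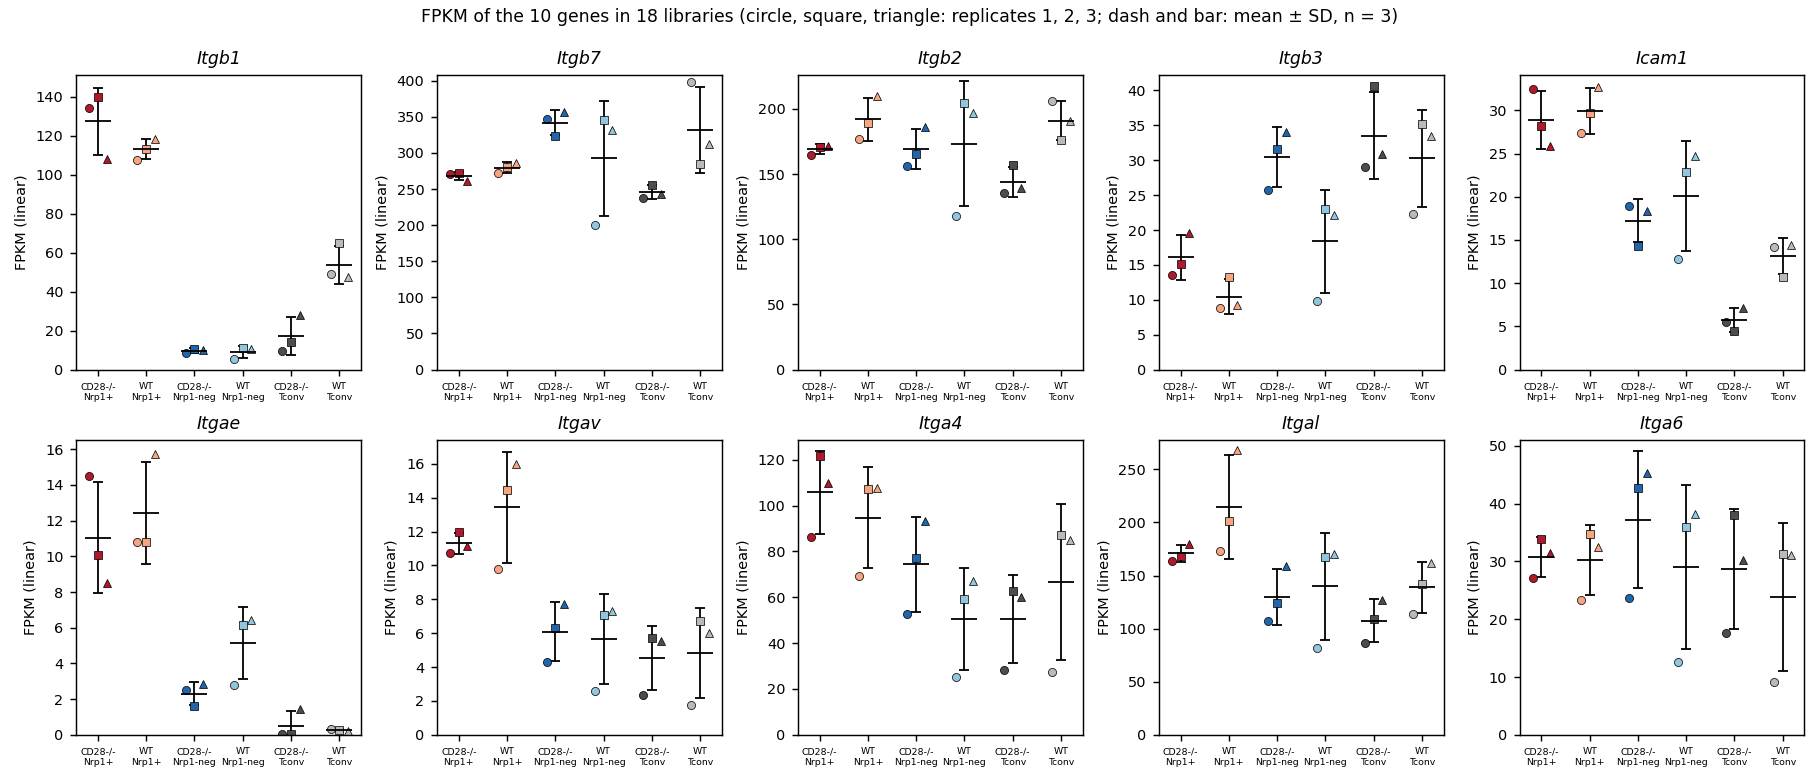
FPKM (vertical, linear, from 0) of each member by group (horizontal), with 3 libraries per group as points and the mean ± SD as bars. Itgb1 stood at 107.6 FPKM or more in all 6 Nrp1+ Treg libraries and at 11.2 FPKM or less in all 6 Nrp1-negative Treg libraries, while Itgb7 kept to 200.7 to 398.6 FPKM throughout.

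CD28 deficiency went with lower Itgb1 and Icam1 in Tconv and with no called change of any member in either Treg subset. In Tconv 2 of 10 members were called lower and none higher, beside 0.791% of all genes tested that were called, all of them lower. The called members were the common beta1 chain and the ligand, and no alpha chain was called.

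Itgb1 was 9.44, 14.3 and 27.9 FPKM in CD28-deficient Tconv and 49.0, 64.7 and 47.3 FPKM in wild-type Tconv. The groups did not overlap, and the highest CD28-deficient library was replicate 3, the one that also carried Treg transcripts. Itgb1 fell by 1.70 ± 0.30 on the log2 scale (mean 17.2 ± 9.56 FPKM in CD28-deficient and 53.7 ± 9.58 FPKM in wild-type Tconv, SD, n = 3 each; limma adjusted p = 0.0083). Without replicate 3 of CD28-deficient Tconv the change was -2.10 (adjusted p = 0.00028). The median of all genes tested was -0.16 in this comparison, and relative to it Itgb1 changed by -1.54.

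Icam1 was 5.53, 4.45 and 7.18 FPKM in CD28-deficient Tconv and 14.2, 10.7 and 14.5 FPKM in wild-type Tconv. Every CD28-deficient library lay below every wild-type one. Icam1 fell by 1.08 ± 0.22 on the log2 scale (5.72 ± 1.38 FPKM in CD28-deficient and 13.1 ± 2.07 FPKM in wild-type Tconv, n = 3 each; limma adjusted p = 0.031), or by 0.92 relative to the median of all genes. Markers of some other cells moved with it, and those of others did not. Summed over 11 myeloid and dendritic cell markers, the level was 7.1 to 8.98 FPKM in CD28-deficient and 14.5 to 21.0 FPKM in wild-type Tconv, with 1 of the 11 at 0 in all Tconv libraries of either genotype. Over 5 NK cell markers it was 0.413 to 0.847 FPKM in CD28-deficient and 1.71 to 2.16 FPKM in wild-type Tconv, with none at 0 throughout. The sum of 2 CD8 T cell markers went the other way (10.8 to 12.9 FPKM in CD28-deficient and 7.57 to 9.95 FPKM in wild-type Tconv). The sum of 6 B cell markers overlapped (0.959 to 3.30 FPKM in CD28-deficient and 1.36 to 1.94 FPKM in wild-type Tconv). Sums of platelet markers and of endothelial and stromal markers overlapped as well. The sum of 5 T cell markers was itself lower without overlap (1238 to 1441 FPKM in CD28-deficient and 1488 to 2037 FPKM in wild-type Tconv). The sum of 7 heat shock and handling stress genes overlapped (405.9 to 588.2 FPKM in CD28-deficient and 375.7 to 1100.6 FPKM in wild-type Tconv). Treg markers summed to 27.8, 28.8 and 169.6 FPKM in CD28-deficient and 80.0, 56.2 and 54.7 FPKM in wild-type Tconv. Nrp1, high in the Treg subset with high Itgb1, was 0.627, 0.841 and 12.8 FPKM in CD28-deficient and 2.99, 4.99 and 5.08 FPKM in wild-type Tconv. The part of other cells in the fall of Icam1 and Itgb1 was not tested.

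Both calls held with a pseudocount of 0.1, without a filter, without a variance trend, with quantile normalization and with a block on the replicate number. They were lost in other treatments of the data. With only the 6 Tconv libraries in the fit the changes were the same (-1.70 and -1.08), with an adjusted p of 0.36 for Itgb1 and 0.29 for Icam1, and 3 genes of 12265 were called, against 97. Rescaling the libraries to a common sum without Mir5105, which took 10.98% to 26.9% of summed FPKM in CD28-deficient and 2.98% to 19.4% in wild-type Tconv, gave -1.39 for Itgb1 (adjusted p = 0.065) and -0.79 for Icam1 (adjusted p = 0.15). The Itgb1 call was also lost without CD28-deficient Tconv replicate 1 (-1.37, adjusted p = 0.057), without its replicate 2 (-1.64, adjusted p = 0.057) and without wild-type Tconv replicate 2 (-1.56, adjusted p = 0.065). The Icam1 call was lost without any one of 5 of the 6 Tconv libraries, CD28-deficient replicate 3 being the exception, and without replicate 2 of either group of Nrp1+ Treg (changes from -1.21 to -0.94, adjusted p from 0.052 to 0.21). Across these, both members stayed lower in CD28-deficient Tconv.

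The beta2 and beta7 chains had non-overlapping groups in Tconv as well, so that 4 of 10 members did, beside 18.7% of all genes tested. Itgb2 was 135.1, 157.3 and 139.7 FPKM in CD28-deficient Tconv and 205.8, 176.5 and 191.0 FPKM in wild-type Tconv. Itgb7 was 237.2, 256.1 and 242.7 FPKM in CD28-deficient Tconv and 398.6, 284.6 and 311.7 FPKM in wild-type Tconv. Neither was called (log2 change -0.41 ± 0.18 with adjusted p = 0.49 for Itgb2, and -0.42 ± 0.18 with adjusted p = 0.48 for Itgb7). The other 6 members overlapped between genotypes in Tconv and their changes ran from -0.37 for Itgal to 0.37 for Itga6.

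In Nrp1+ Treg none of the 10 members was called (0 at an unadjusted p under 0.05), beside 0.204% of all genes tested. Changes ran from -0.30 for Itgal to 0.58 for Itgb3. Itgb1 was 134.2, 139.9 and 107.9 FPKM in CD28-deficient and 107.6, 113.4 and 118.1 FPKM in wild-type Nrp1+ Treg, and these ranges overlapped (0.16 ± 0.30). Icam1 was 32.5, 28.2 and 25.9 FPKM in CD28-deficient and 27.4, 29.7 and 32.7 FPKM in wild-type Nrp1+ Treg, again overlapping (-0.05 ± 0.22).

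In Nrp1-negative Treg none of the 10 was called either (2 at an unadjusted p under 0.05), beside 0.204% of all genes tested. Itgae, the CD103 chain, was 2.5, 1.6 and 2.83 FPKM in CD28-deficient and 2.82, 6.18 and 6.46 FPKM in wild-type Nrp1-negative Treg. The low wild-type library was replicate 1, the one with the fewest genes, and it alone overlapped the CD28-deficient group. The change was -0.85 ± 0.32 (adjusted p = 0.77), and no omission of 1 library gave a call (without this one it was -1.16, adjusted p = 0.26). Without this library, CD28-deficient Tconv replicate 3 and wild-type Tconv replicate 1 it was -1.16 (adjusted p = 0.028). Itgb3 was 25.7, 31.5 and 34.1 FPKM in CD28-deficient and 9.88, 23.0 and 22.2 FPKM in wild-type Nrp1-negative Treg. Its groups did not overlap, and the change was 0.78 ± 0.28 (adjusted p = 0.75). Itgb3 also did not overlap between genotypes in Nrp1+ Treg, at 13.5, 15.1 and 19.6 FPKM in CD28-deficient and 8.88, 13.3 and 9.25 FPKM in wild-type cells (0.58 ± 0.28, adjusted p = 1.0).

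Whether the effect of CD28 deficiency differed between populations was tested directly, and no member was called in any of the 3 tests. The counts at an unadjusted p under 0.05 were 0 for Nrp1-negative minus Nrp1+ Treg, 2 for Nrp1+ Treg minus Tconv and 4 for Nrp1-negative Treg minus Tconv. The share of all genes called was 0.0245%, 0.122% and 0.0734% in these tests, in that order. For Itgb1 the effect in Nrp1+ Treg exceeded that in Tconv by 1.87 ± 0.42 (adjusted p = 0.16), and that in Nrp1-negative Treg exceeded it by 1.83 ± 0.42 (adjusted p = 0.19). Leaving out 1 library moved the first between 1.53 and 2.26 and the second between 1.5 and 2.23. The lowest values came without CD28-deficient Tconv replicate 1 (adjusted p = 0.46 and 0.54). The highest came without its replicate 3 (adjusted p = 0.010 and 0.013), the one omission of the 18 with which they were called. For Icam1 the differences were 1.03 ± 0.32 (adjusted p = 0.87) and 0.91 ± 0.32 (adjusted p = 0.47).

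**Figure D2:**
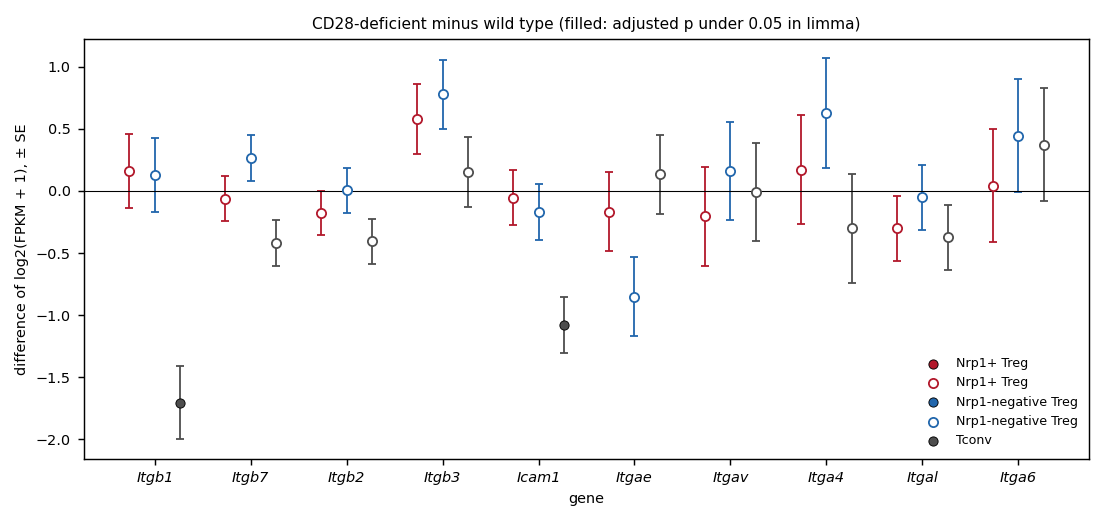
CD28-deficient minus wild type, as a difference of log2(FPKM + 1) ± SE (vertical), for each member (horizontal) in Nrp1+ Treg, Nrp1-negative Treg and Tconv. Filled points have a limma adjusted p under 0.05, and only Itgb1 (-1.70) and Icam1 (-1.08) in Tconv are filled.

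Between the Treg subsets the member with the largest difference was Itgb1. CD28-deficient Nrp1+ Treg had 134.2, 139.9 and 107.9 FPKM of Itgb1, against 8.26, 10.6 and 10.3 FPKM in CD28-deficient Nrp1-negative Treg. Wild-type Nrp1+ Treg had 107.6, 113.4 and 118.1 FPKM, against 5.6, 11.2 and 10.5 FPKM in wild-type Nrp1-negative Treg. The lowest Nrp1+ library was thus far above the highest Nrp1-negative one in both genotypes. The means were 13.1 times apart in CD28-deficient cells (log2 change 3.58 ± 0.30, limma adjusted p = 3.8e-06) and 12.4 times apart in wild-type cells (3.55 ± 0.30, adjusted p = 6.5e-06). In each genotype 2 of 10 members were called, both higher in Nrp1+ Treg. Of all genes tested, 4.08% were called in CD28-deficient cells (3.13% higher in Nrp1+ Treg) and 4.93% in wild-type cells (4.44% higher).

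Itgae was the other called member. It was 14.5, 10.1 and 8.53 FPKM in CD28-deficient Nrp1+ Treg and 2.5, 1.6 and 2.83 FPKM in CD28-deficient Nrp1-negative Treg (log2 change 1.85 ± 0.32, adjusted p = 0.0018). In wild-type cells it was 10.8, 10.8 and 15.7 FPKM in Nrp1+ Treg and 2.82, 6.18 and 6.46 FPKM in Nrp1-negative Treg (1.17 ± 0.32, adjusted p = 0.044). The groups did not overlap in either genotype. With a pseudocount of 0.1 neither was called (2.21, adjusted p = 0.078 in CD28-deficient, and 1.32, adjusted p = 0.38 in wild-type cells). The wild-type call was also lost without any one of 12 of the 18 libraries (changes from 0.86 to 1.25, adjusted p from 0.051 to 0.25), without a filter (adjusted p = 0.087) and with only the compared groups (adjusted p = 0.17).

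Libraries of these subsets with the same replicate number were correlated across genes after removal of group means. The correlations were 0.134 to 0.238 in CD28-deficient and 0.256 to 0.504 in wild-type cells. Tconv of different genotypes, which cannot share a mouse, were correlated too (0.149 to 0.439). Whether libraries with the same number share a mouse is thus not known. With the number as a block more members were called. In wild-type cells the count was 6 of 10 with the block, against 2 without it, and the share of all genes called with the block was 9.98%. Itga4, the alpha4 chain, was then higher in Nrp1+ Treg (0.98, adjusted p = 0.0071), as were Itgav (1.19, adjusted p = 0.0021) and Itgal (0.66, adjusted p = 0.021), and Itgb3 was lower (-0.69, adjusted p = 0.033). In CD28-deficient cells it was 4 of 10 with the block, beside 6.53% of all genes and against 2 without it, adding Itgav (0.82, adjusted p = 0.032) and Itgb3 (-0.89, adjusted p = 0.0089). Replicate 1 was the lowest of 3 in all 6 groups for Itga4, Itga6, Itgav, Itgal and Itgb3, and in 5 of 6 groups for Itgb2. Itga4, for example, was 86.1, 121.4 and 109.7 FPKM in CD28-deficient Nrp1+ Treg and 52.5, 76.9 and 93.4 FPKM in CD28-deficient Nrp1-negative Treg. In wild-type cells Itga4 was 69.4, 107.1 and 107.7 FPKM in Nrp1+ Treg and 25.1, 59.4 and 67.2 FPKM in Nrp1-negative Treg. Itgb2, Itgb7, Itga6 and Icam1 were called neither with nor without the block. Icam1 did not overlap between the subsets and was higher in Nrp1+ Treg in both genotypes. The change was 0.72 in CD28-deficient (adjusted p = 0.11) and 0.60 in wild-type cells (adjusted p = 0.19). The CD28-deficient difference was called with only the compared groups (adjusted p = 0.026), quantile normalization (adjusted p = 0.0099) or rescaling without Mir5105 (adjusted p = 0.0069). It was also called without wild-type Nrp1-negative Treg replicate 1 (adjusted p = 0.014).

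Nrp1+ Treg differed from Tconv in chains of each kind and in the ligand. In CD28-deficient cells 4 of 10 were called (3 higher and 1 lower), beside 12.1% of all genes tested (9.63% higher and 2.47% lower). In wild-type cells 5 of 10 were called (4 higher and 1 lower), beside 12.6% (8.33% higher and 4.26% lower). Itgae, Itgb1 and Icam1 were higher and Itgb3 was lower in both genotypes, and Itgav was higher in wild-type cells. Tconv libraries are the same in this and the next comparison, and Nrp1+ Treg libraries are shared with the comparison of subsets.

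Itgae was near the bottom of the scale in Tconv, at 0.0538, 0.0672 and 1.44 FPKM in CD28-deficient and 0.311, 0.296 and 0.227 FPKM in wild-type cells. The value above 1 was again that of CD28-deficient replicate 3. The log2 change of Nrp1+ Treg against Tconv was 3.07 ± 0.32 in CD28-deficient cells (adjusted p = 9.4e-06) and 3.37 ± 0.32 in wild-type cells (adjusted p = 3.6e-06). A second gene overlaps Itgae. Haspin, listed under its older symbol Gsg2, lies inside Itgae on the opposite strand in GENCODE (GRCm38) and was 1.08 to 1.88 FPKM in Tconv. Apart from CD28-deficient replicate 3, every Tconv library had Itgae below these values. The strand setting of the counting is not given in the sources used here. Whether reads of Haspin were counted for Itgae was not tested.

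Itgb1 stood above the Tconv level in Nrp1+ Treg of both genotypes. In CD28-deficient cells Nrp1+ Treg had 7.41 times the mean Itgb1 of Tconv (2.94 ± 0.30, adjusted p = 7.9e-06). In wild-type cells they had 2.11 times (1.07 ± 0.30, adjusted p = 0.023). The wild-type call was lost without any one wild-type Nrp1+ Treg library, or without wild-type Tconv replicate 1 or 3 (changes from 0.99 to 1.11, adjusted p from 0.052 to 0.082). The difference between these values is the test of CD28 effects given above, which was not called with all libraries.

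Icam1 was higher in Nrp1+ Treg than in Tconv by 2.17 ± 0.22 in CD28-deficient cells (28.9 ± 3.35 FPKM in Nrp1+ Treg and 5.72 ± 1.38 FPKM in Tconv, adjusted p = 9.4e-06). In wild-type cells it was higher by 1.14 ± 0.22 (29.9 ± 2.69 FPKM in Nrp1+ Treg and 13.1 ± 2.07 FPKM in Tconv, adjusted p = 0.0019). Markers of other cells differed between these groups too. Over 6 B cell markers the summed level was 5.57 to 6.11 FPKM in CD28-deficient Nrp1+ Treg and 0.959 to 3.30 FPKM in CD28-deficient Tconv, and 10.6 to 12.5 FPKM in wild-type Nrp1+ Treg and 1.36 to 1.94 FPKM in wild-type Tconv. None of the 6 was at 0 throughout a group. Over the 11 myeloid and dendritic cell markers it was 11.01 to 44.9 FPKM in CD28-deficient Nrp1+ Treg and 7.1 to 8.98 FPKM in CD28-deficient Tconv, and 20.4 to 32.7 FPKM in wild-type Nrp1+ Treg and 14.5 to 21.0 FPKM in wild-type Tconv. In Nrp1-negative Treg the B cell sum was 4.33 to 6.28 FPKM in CD28-deficient and 4.82 to 7.62 FPKM in wild-type cells, and the myeloid sum 15.7 to 57.7 FPKM in CD28-deficient and 19.2 to 73.2 FPKM in wild-type cells. The sum of 2 CD8 T cell markers went the other way in CD28-deficient cells (6.27 to 6.51 FPKM in Nrp1+ Treg and 10.8 to 12.9 FPKM in Tconv). It did so in wild-type cells too (6.10 to 7.15 FPKM in Nrp1+ Treg and 7.57 to 9.95 FPKM in Tconv). The part of other cells in the differences between Treg and Tconv was not tested. Itgav was 9.78, 14.5 and 16.0 FPKM in wild-type Nrp1+ Treg and 1.77, 6.71 and 6.02 FPKM in wild-type Tconv (1.41 ± 0.40, adjusted p = 0.024). That call was lost without wild-type Nrp1+ Treg replicate 2 (1.35, adjusted p = 0.084) or 3 (1.28, adjusted p = 0.10), without wild-type Tconv replicate 1 (0.94, adjusted p = 0.14), without a filter (adjusted p = 0.052) and with only the compared groups (adjusted p = 0.096). In CD28-deficient cells Itgav was 10.8, 12.0 and 11.1 FPKM in Nrp1+ Treg and 2.36, 5.71 and 5.55 FPKM in Tconv, without overlap (1.22 ± 0.40, adjusted p = 0.058).

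Itgb3, the beta3 chain, went the other way. It was 13.5, 15.1 and 19.6 FPKM in CD28-deficient Nrp1+ Treg and 29.0, 40.6 and 30.9 FPKM in CD28-deficient Tconv (-1.02 ± 0.28, adjusted p = 0.022). In wild-type cells it was 8.88, 13.3 and 9.25 FPKM in Nrp1+ Treg and 22.3, 35.1 and 33.4 FPKM in Tconv (-1.44 ± 0.28, adjusted p = 0.0016). All Nrp1+ Treg libraries lay below the Tconv libraries of their genotype. The CD28-deficient call was lost without Nrp1+ Treg replicate 1 (-0.91, adjusted p = 0.11) or 2 (-0.98, adjusted p = 0.081), or without Tconv replicate 2 (-0.87, adjusted p = 0.11). Beta3 is also a platelet integrin chain, and platelet transcripts were scarce. Summed over 8 platelet markers the level was 1.84 to 3.85 FPKM in the 18 libraries, and the platelet chemokines Pf4 and Ppbp did not exceed 0.542 and 0.692 FPKM. The sum was 2.03 to 2.95 FPKM in CD28-deficient Nrp1+ Treg and 1.84 to 2.42 FPKM in CD28-deficient Tconv. In wild-type cells it was 1.89 to 2.59 FPKM in Nrp1+ Treg and 1.91 to 2.85 FPKM in Tconv. The part of platelets in the Itgb3 difference was not tested.

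With the replicate block the count was 7 of 10 in both genotypes for Nrp1+ Treg against Tconv, and 16.6% of all genes were called with it in CD28-deficient and 17.5% in wild-type cells. In CD28-deficient cells this added Itga4 (1.12, adjusted p = 0.0011), Itgal (0.68, adjusted p = 0.0095) and Itgav (adjusted p = 0.00062), and in wild-type cells Itga4 (0.65, adjusted p = 0.047) and Itgal (0.61, adjusted p = 0.019), all higher in Nrp1+ Treg. Itgal was 164.1, 168.8 and 180.0 FPKM in CD28-deficient Nrp1+ Treg and 86.1, 109.5 and 126.8 FPKM in CD28-deficient Tconv, without overlap. In wild-type cells it was 173.2, 201.2 and 268.5 FPKM in Nrp1+ Treg and 114, 141.8 and 161.5 FPKM in Tconv, again without overlap. Cerkl overlaps Itga4 on the opposite strand in GENCODE and was at most 9.21 FPKM.

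Nrp1-negative Treg shared the higher Itgae with Nrp1+ Treg but not the higher Itgb1. In each genotype 2 of 10 members were called against Tconv, beside 5.85% of all genes tested in CD28-deficient and 4.49% in wild-type cells. Itgae was higher in both (1.22 ± 0.32, adjusted p = 0.031 in CD28-deficient, and 2.21 ± 0.32, adjusted p = 0.00043 in wild-type cells). The CD28-deficient Itgae call was lost without CD28-deficient Nrp1-negative Treg replicate 1 or 3, or without CD28-deficient Tconv replicate 1 or 2 (changes from 1.02 to 1.17, adjusted p from 0.10 to 0.18), without a filter (adjusted p = 0.081), with only the compared groups (adjusted p = 0.090) and after the rescaling without Mir5105 (adjusted p = 0.051).

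Itgb1 in wild-type Nrp1-negative Treg was 5.6, 11.2 and 10.5 FPKM, against 49.0, 64.7 and 47.3 FPKM in wild-type Tconv, 5.9 times lower (-2.47 ± 0.30, adjusted p = 8.4e-05). In CD28-deficient cells it was 8.26, 10.6 and 10.3 FPKM in Nrp1-negative Treg and 9.44, 14.3 and 27.9 FPKM in Tconv, with overlap (-0.64 ± 0.30, adjusted p = 0.29). Icam1 was 19.0, 14.3 and 18.4 FPKM in CD28-deficient Nrp1-negative Treg and 5.53, 4.45 and 7.18 FPKM in CD28-deficient Tconv (1.45 ± 0.22, adjusted p = 0.00072). In wild-type cells Icam1 was 12.9, 22.9 and 24.7 FPKM in Nrp1-negative Treg and 14.2, 10.7 and 14.5 FPKM in Tconv (0.54 ± 0.22, adjusted p = 0.24). The low library was replicate 1, and without it the change was 0.82 (adjusted p = 0.013).

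**Figure D3:**
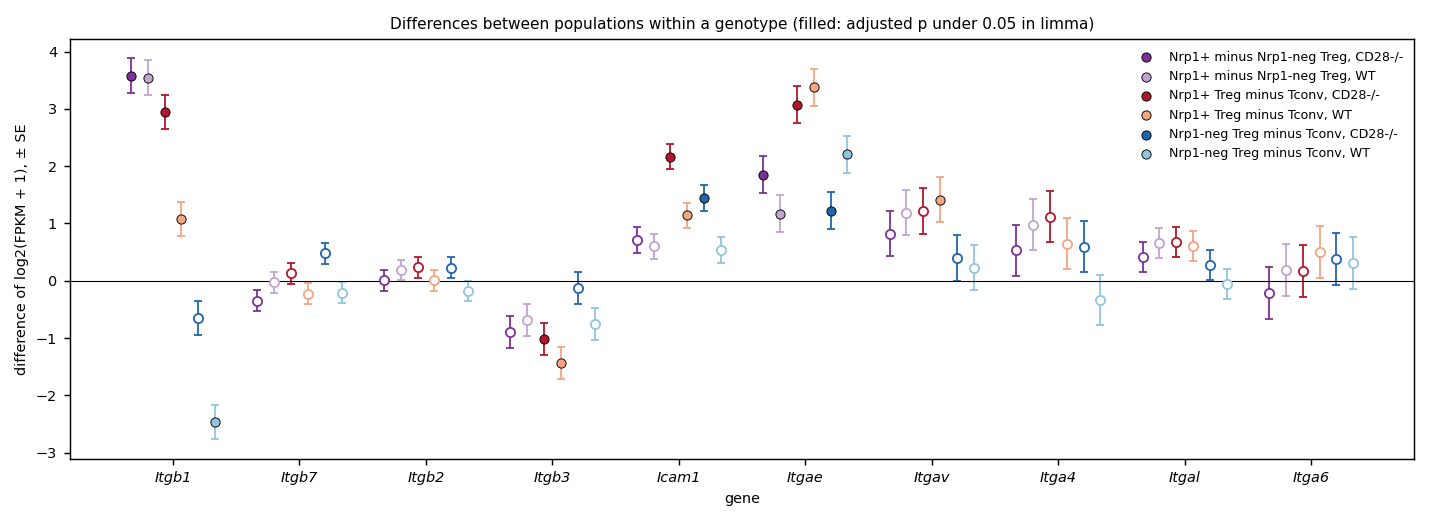
Differences between populations within a genotype, as a difference of log2(FPKM + 1) ± SE (vertical), for each member (horizontal) in 6 comparisons. Filled points have a limma adjusted p under 0.05; Itgb1 spans 3.58 (Nrp1+ minus Nrp1-negative Treg, CD28-deficient) to -2.47 (Nrp1-negative Treg minus Tconv, wild type).

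Taking the called members by group order, Itgb1 ran from both groups of Nrp1+ Treg (means 127 and 113 FPKM in CD28-deficient and wild-type cells, overlapping) through wild-type Tconv (53.7 FPKM) to CD28-deficient Tconv (17.2 FPKM), with no overlap at either step. CD28-deficient Tconv overlapped both groups of Nrp1-negative Treg (9.7 FPKM in CD28-deficient and 9.1 FPKM in wild-type cells). Icam1 ran from Nrp1+ Treg (28.9 and 29.9 FPKM) through Nrp1-negative Treg (17.2 and 20.1 FPKM) and wild-type Tconv (13.1 FPKM) to CD28-deficient Tconv (5.72 FPKM), and it was set apart from its neighbours at the first and the last of these steps. Itga6, Itga4, Itgal and Itgb2 overlapped between all neighbours in their order.

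Ratios of partner or competing chains within a library, as log2 of (FPKM + 1), are given as a description and were not tested. Itgb1 over Itgb7, the beta chains that share alpha4, was -1.08 in CD28-deficient and -1.30 in wild-type Nrp1+ Treg (means of 3), and -5.01 in CD28-deficient and -4.87 in wild-type Nrp1-negative Treg. For Tconv it was -3.89 in CD28-deficient and -2.60 in wild-type cells. The ratio was lower in each CD28-deficient than in each wild-type Tconv library (highest -3.08 in CD28-deficient, lowest -3.00 in wild-type cells). Itga6 over Itgb1 was -2.01 in CD28-deficient and -1.89 in wild-type Nrp1+ Treg, and 1.79 in CD28-deficient and 1.47 in wild-type Nrp1-negative Treg. For Tconv it was 0.77 in CD28-deficient and -1.31 in wild-type cells. Transcripts of the alpha6 chain thus outnumbered those of its beta1 partner, per length, in Nrp1-negative Treg of both genotypes and in CD28-deficient Tconv. Itgae over Itgb7 was -6.71 in CD28-deficient and -5.60 in wild-type Nrp1-negative Treg, without overlap (highest -6.54 in CD28-deficient, lowest -5.72 in wild-type cells). Itgal over Itgb2, the LFA-1 chains, had group means from -0.47 to 0.14.

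**Figure D4:**
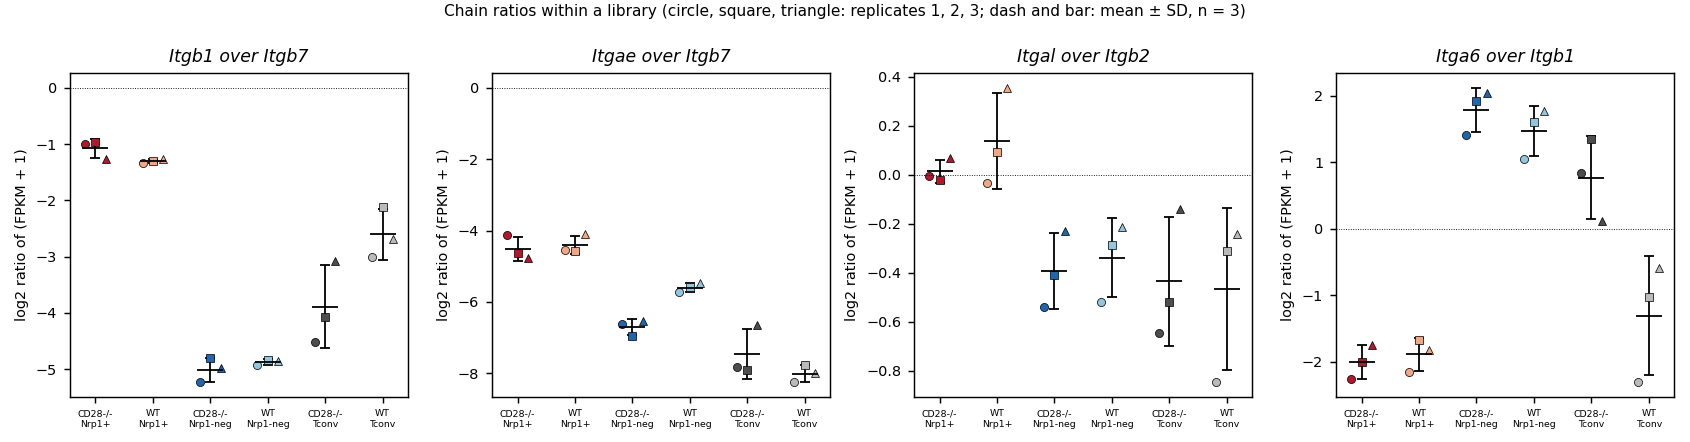
Log2 ratio of (FPKM + 1) of a pair of chains within each library (vertical) by group (horizontal), with points for libraries and bars for the mean ± SD of 3. Itgb1 over Itgb7 lies at -1.33 or above in Nrp1+ Treg and at -4.81 or below in Nrp1-negative Treg, and Itga6 over Itgb1 changes sign between the subsets.

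Other chains and partners of the integrin pathway were read from lists chosen with earlier results of these data known. Of 17 other integrin chains listed, 7 passed the filter. One of them was called for genotype, Itga7, a laminin-binding alpha chain that pairs with beta1. It averaged 1.85 ± 0.057 FPKM in CD28-deficient and 3.80 ± 0.406 FPKM in wild-type Tconv (-0.75 ± 0.12, adjusted p = 0.0040), a call lost with only the compared groups in the fit (adjusted p = 0.27). Its CD28 effect in Nrp1+ Treg exceeded that in Tconv by 1.22 ± 0.17 (adjusted p = 0.0083), a call lost without CD28-deficient Nrp1+ Treg replicate 2 and with a pseudocount of 0.1 (adjusted p up to 0.091). Between subsets 2 of 7 were called in each genotype, both higher in Nrp1+ Treg, where 3.13% of all genes were higher in CD28-deficient and 4.44% in wild-type cells: Itgb8, the alphaV partner, at 6.22 ± 1.56 FPKM in CD28-deficient Nrp1+ and 0.402 ± 0.167 FPKM in CD28-deficient Nrp1-negative Treg (2.35 ± 0.32, adjusted p = 0.00025), and Itga7 (1.49 ± 0.12, adjusted p = 3.5e-06). In wild-type cells the changes were 2.14 ± 0.32 for Itgb8 (adjusted p = 0.00066) and 1.07 ± 0.12 for Itga7 (adjusted p = 8.4e-05), and Itgb8 was not called with a pseudocount of 0.1 (adjusted p = 0.050). Against Tconv, 3 of the 7 were higher and 1 lower in CD28-deficient Nrp1+ Treg (9.63% and 2.47% of all genes), and 2 were higher and 2 lower in wild-type Nrp1+ Treg (8.33% and 4.26%).

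A further list held genes that switch integrins on or tie them to the cytoskeleton. Of 26 tested, none was called for genotype in any population, where 0.204% (Nrp1+ Treg), 0.204% (Nrp1-negative Treg) and 0.791% (Tconv) of all genes were called, and their median change for genotype was -0.07 in Nrp1+ Treg, beside -0.05 over all genes tested. It was 0.21 for Nrp1-negative Treg, beside 0.19, and -0.21 for Tconv, beside -0.16. Rasgrp2, the Rap1 activator that switches on LFA-1, was lower in Nrp1+ Treg than in Tconv in both genotypes (-0.77 ± 0.18, adjusted p = 0.0058 in CD28-deficient, and -1.18 ± 0.18, adjusted p = 0.00014 in wild-type cells). In wild-type cells Rasgrp2 was lower in Nrp1-negative Treg than in Tconv too (-0.73 ± 0.18, adjusted p = 0.022). That call was lost in 4 of 27 alternatives (adjusted p up to 0.65). It was also lower in CD28-deficient Nrp1+ than Nrp1-negative Treg (-0.75 ± 0.18, adjusted p = 0.020), a call lost without any one of 5 of those 6 libraries, CD28-deficient Nrp1+ Treg replicate 3 being the exception (adjusted p up to 0.12). Among 4 tested integrin ligands Lamc1, a laminin chain, was higher in both Treg subsets than in Tconv in both genotypes (from 1.61 to 2.80), and Mfge8, an alphaV ligand, was lower in Nrp1+ Treg than in Tconv in both genotypes (-0.70 in CD28-deficient and -0.95 in wild-type cells). The CD28-deficient Mfge8 call was lost without replicate 1 or 2 of either group (adjusted p up to 0.14). Mfge8 was lower in wild-type Nrp1-negative Treg than in wild-type Tconv too (-1.11, adjusted p = 0.0032). That call was lost with only the compared groups (adjusted p = 0.22).

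Of 10 tested tetraspanins and CD proteins that associate with integrins, none was called for genotype and 2 were higher in Nrp1+ than in Nrp1-negative Treg in each genotype (3.13% of all genes in CD28-deficient and 4.44% in wild-type cells). Cd81 changed by 1.34 ± 0.30 in CD28-deficient and by 1.90 ± 0.30 in wild-type cells (adjusted p = 0.015 and 0.0010), and Cd82 by 0.995 ± 0.21 in CD28-deficient and 1.07 ± 0.21 in wild-type cells (adjusted p = 0.0076 and 0.0041). The CD28-deficient Cd81 call was lost without replicate 1 or 2 of either subset (adjusted p up to 0.073). Of 13 other adhesion receptors tested, none was called for genotype. Alcam and Cd200 were higher in Nrp1+ than in Nrp1-negative Treg in both genotypes (wild-type Alcam was not called with a pseudocount of 0.1, adjusted p = 0.051, nor wild-type Cd200 and Cd82 with only the compared groups, adjusted p = 0.088 and 0.067), and the hyaluronan receptor Cd44 in wild-type cells (1.07 ± 0.27, adjusted p = 0.028). That Cd44 call was lost without wild-type Nrp1+ Treg replicate 2 or 3, without wild-type Nrp1-negative Treg replicate 1 and with only the compared groups (adjusted p up to 0.18). Against Tconv, 7 of the 13 were higher and 1, Crtam, was lower in CD28-deficient Nrp1+ Treg (9.63% and 2.47% of all genes), and 3 were higher and 1, again Crtam, was lower in wild-type Nrp1+ Treg (8.33% and 4.26%). Crtam was lower than in Tconv in Nrp1-negative Treg too (-1.24, adjusted p = 0.0011 in CD28-deficient, and -1.46, adjusted p = 0.00032 in wild-type cells).

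For each called member the genes with the most similar pattern were taken as those with the smallest root mean square difference of centred log2 means over the 6 groups, among 9841 genes. They are a description without a test. Itgb1 had no close match, its nearest being Il9r (0.64 on the log2 scale), Zbtb32 (0.71) and Ptpn5 (0.71). Itgav was matched more closely, by Rel (0.05), Adora2a (0.06) and Hdac9 (0.06). Icam1 was matched by Inppl1 (0.09), Unc93b1 (0.11) and Prr13 (0.11), Itgb3 by Txk (0.13), Trib3 (0.13) and Dse (0.14), and Itgae by Dusp4 (0.20), Tnfrsf9 (0.24) and Tnfrsf4 (0.26).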

How the data were processed

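Expression was measured in 18 libraries of sorted mouse spleen T cells, made per the labels from total RNA with a NEBNext Ultra kit as single reads of 50 bases. The authors deposited one FPKM per gene and library; the unit was inferred from Cufflinks, named in the submitters' processing notes with Trimmomatic, TopHat2 2.0.11 and GRCm38, and from the values. Neither annotation nor strand setting was given in the sources used here, and the depth is unknown.

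A gene was tested where 3 of the 18 libraries reached an FPKM of 1 (12265 of 26665). Values as log2(FPKM + 1) were fitted with limma 3.58.1 in R 4.3.3, one mean per group and a variance trend, two-sided, with Benjamini-Hochberg adjustment over all genes within a comparison. There were 9 comparisons of a pair of groups and 3 differences of CD28 effects. The code was tested on simulated data. The members, the lists and the motifs were chosen with earlier results of these data known. All members are named; other genes are at most 4 called per list and comparison by size of change, and the 3 nearest patterns per called member. Positions are from GENCODE vM21 and promoters from RefSeq, where 5 of the 10 members had one.

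The main fit had no block on the replicate number. Libraries of equal number were taken as related where, after removal of group means, all 3 correlations across genes were above 0.1. This held in 6 of 9 comparisons, among them CD28-deficient with wild-type Tconv, which cannot share a mouse. The exceptions were the genotype comparisons of both Treg subsets, and wild-type Tconv with wild-type Nrp1-negative Treg. Alternatives were a block on the number, a pseudocount of 0.1, no filter, no trend, only the compared groups, quantile normalization, rescaling without Mir5105, and leaving out each library, the 2 with transcripts of another population (replicate 3 of CD28-deficient Nrp1+ Treg and of CD28-deficient Tconv), or 3 that stood apart (replicate 3 of CD28-deficient Tconv, and replicate 1 of wild-type Nrp1-negative Treg and of wild-type Tconv).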

Additional observations from a re-analysis of the deposited data

How the results depend on the processing

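No called change of a member turned its direction under any alternative run. The number of members called moved as follows. For CD28-deficient against wild-type Tconv it was 0, against 2, with only the compared groups and after rescaling without Mir5105, and 0 to 2 without 1 library. For Nrp1+ against Nrp1-negative Treg in CD28-deficient cells (2) it was 1 at pseudocount 0.1, 6 when fitting only the compared groups, 4 with quantile normalization, 4 with the replicate block, 6 without the 3 libraries that stood apart (replicate 3 of CD28-deficient Tconv, and replicate 1 of wild-type Nrp1-negative Treg and of wild-type Tconv), and 2 to 4 without 1 library. The rescaling gave 3 there. In wild-type cells (2) it was 1 with a pseudocount of 0.1, without a filter and with only the compared groups, 4 with quantile normalization, 6 with the replicate block, and 1 to 2 without 1 library. For Nrp1+ Treg against Tconv it was 7 with the replicate block and without the same 3 libraries in CD28-deficient cells (4), and 3 to 6 without 1 library in either genotype. For Nrp1-negative Treg against Tconv in CD28-deficient cells (2) it was 1 without a filter and after the rescaling, and 1 to 3 without 1 library, and in wild-type cells (2) it was 2 to 3. Without the 3 libraries 1 member, Itgae, was called for genotype in Nrp1-negative Treg (0 with all). In the differences of CD28 effects between either Treg subset and Tconv, 1 member, Itgb1, was called (0 with all) without the 3 libraries and without both replicates 3 that carried transcripts of another population (CD28-deficient Tconv and Nrp1+ Treg), and 0 to 1 without 1 library. The count for genotype in Nrp1+ Treg and that for the difference between the Treg subsets were 0 throughout. Apart from the calls named beside the results, the replicate block added Itgb3 in wild-type Nrp1-negative Treg against Tconv (3 members, against 2). In that comparison not all 3 correlations of equal replicate numbers were above 0.1.

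The sign of changes that were not called turned in 16 of 120 with quantile normalization, in 19 of 120 after the rescaling, and in 20 of 120 without the 3 libraries. Among 57 calls of other adhesion genes, 31 held in all alternatives and none turned. Of 24 ratio means, 5 moved by more than 1 SD with a pseudocount of 0.1. The depth is unknown, and with 3 libraries a group and no paired mice stated, an uncalled member is not shown to be equal between groups.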

Other observations

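Of the 17 other integrin chains, 10 did not pass the filter on low values. The collagen receptor chain Itga2 was the one of them with the highest value in a single library, at 0.169 to 1.16 FPKM, and it averaged 0.976 FPKM in CD28-deficient and 0.748 FPKM in wild-type Nrp1+ Treg, 0.490 FPKM in CD28-deficient and 0.383 FPKM in wild-type Nrp1-negative Treg, and 0.345 FPKM in CD28-deficient and 0.280 FPKM in wild-type Tconv. Itgb5, a further partner of alphaV, averaged 0.510 FPKM in CD28-deficient and 0.673 FPKM in wild-type Nrp1+ Treg, and 0.0916 FPKM in CD28-deficient and 0.160 FPKM in wild-type Tconv. Both chains were chosen after their values were seen, and neither was tested.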
